A study of Mus musculus with 12 samples.

Results

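Serotonin neurons of the mouse embryo were compared between a rostral and a caudal domain of the neural tube, and the difference between the domains was set against the same difference in cells that were not serotonin neurons. The embryos were ePet-EYFP at stage E12.5, a transgenic line whose yellow fluorescent protein (YFP) is under the control of Pet-1 enhancer sequence. Sorting gave YFP-positive cells of the rostral domain (R+), YFP-negative cells of the rostral domain (R-), YFP-positive cells of the caudal domain (C+) and YFP-negative cells of the caudal domain (C-). The cut between the domains lay at the pontine flexure, the rostral piece reached to the mesencephalic flexure and the caudal piece to the spinal cord. Each group had 3 biological replicates of 200000 cells, and all 12 arrays of the series entered the comparison. The measured quantity was the difference of differences, R+ minus C+ less R- minus C-, on the log2(signal + 10) scale, in 12845 genes. It is positive where R+ stood higher against C+ than R- stood against C-, and a value of 1 is a 2-fold ratio between the 2 domain ratios.

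Serotonin neurons arise next to the floor plate of the hindbrain in a rostral and a caudal cluster. The rostral cluster forms the dorsal and median raphe nuclei and sends axons to the forebrain and midbrain, while the caudal cluster forms the medullary raphe nuclei and sends axons to the brainstem and spinal cord. Both clusters use the same transcription factors, among them Pet-1, Lmx1b, Gata2 and Gata3, to switch on the genes that make, store and recover serotonin. Position along the neural tube is encoded by Hox genes in the hindbrain and by Otx2 and the engrailed genes toward the midbrain. A gene that marks position in every cell of a domain cancels in the difference of differences, and a gene whose domain difference is larger, smaller or opposite in the YFP-positive cells does not.

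The signals were MAS5 intensities, and array medians lay between 93 and 121. Summed over 7 measured serotonin neuron markers, signals were 58228 to 64782 on the R+ arrays, 42158 to 46366 on the C+ arrays, 4601 to 4971 on the R- arrays and 2221 to 3279 on the C- arrays. Pet-1 itself was not analysed here. Because the samples are bulk RNA, fewer cells that express a gene and less RNA per cell cannot be told apart, and YFP-negative cells are a mixture of all other cell types of their domain. The ratio of 3' to 5' beta-actin control signals, a sign of RNA quality, averaged 3.24 ± 0.525 (SD, n = 3) for R+ and 3.52 ± 0.777 for R-, against 5.79 ± 1.20 for C+ and 5.75 ± 1.69 for C-. Its own difference of differences over the 3 replicate numbers was -0.14 ± 0.491 (SD) on the log2 scale. The same ratio for Gapdh was highest in C+, at 3.20 ± 1.52 against 2.04 ± 0.482 for C-, 1.38 ± 0.276 for R+ and 1.49 ± 0.566 for R-. Its difference of differences was -0.614 ± 0.53, with -0.023, -1.04 and -0.774 in replicates 1, 2 and 3. With the beta-actin ratio as a covariate in the fit 177 genes passed, among them all 150 that passed without it. With the Gapdh ratio, a covariate chosen after seeing the data, 204 passed (99 higher, 105 lower), among them 148 of the 150, and Gabrb1 and Ptchd1 lost their calls.

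The domain difference was not the same in the 2 cell populations for 150 of the 12845 genes (1.17%; limma, Benjamini-Hochberg adjusted p below 0.05). It was higher for 63 genes (0.49%), led by the homeobox gene Hmx2 and by Pdzrn4, and lower for 87 genes (0.677%), led by Irs4, Shox2 and Tac1. With replicate number as a block in the fit, 340 genes passed (2.65%), 141 higher (1.1%) and 199 lower (1.55%), all 150 among them. At an unadjusted p below 0.05 there were 918 (7.15%). Left out singly, R+ 2 and R+ 3 moved the higher genes most, to 37 and 38, and without all 4 arrays of replicate 2 or of replicate 3 the total fell to 34 and 27. When each array was scaled to the same median instead, 38 genes were higher and 82 lower, and the median over all genes moved from -0.01 to -0.10. The sizes of the 150 differences had a median of 1.70 and began at 0.78, 141 of them were at least 2-fold and 49 at least 4-fold. All 150 had the same sign when computed within each of the 3 replicate numbers. These 3 values average to the contrast that chose the genes, so their agreement is a description and no separate check. Each component of the contrast had its own test as well: 940 genes (7.32%) differed between R+ and C+, and 363 (2.83%) between R- and C-.

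**Figure D1:**
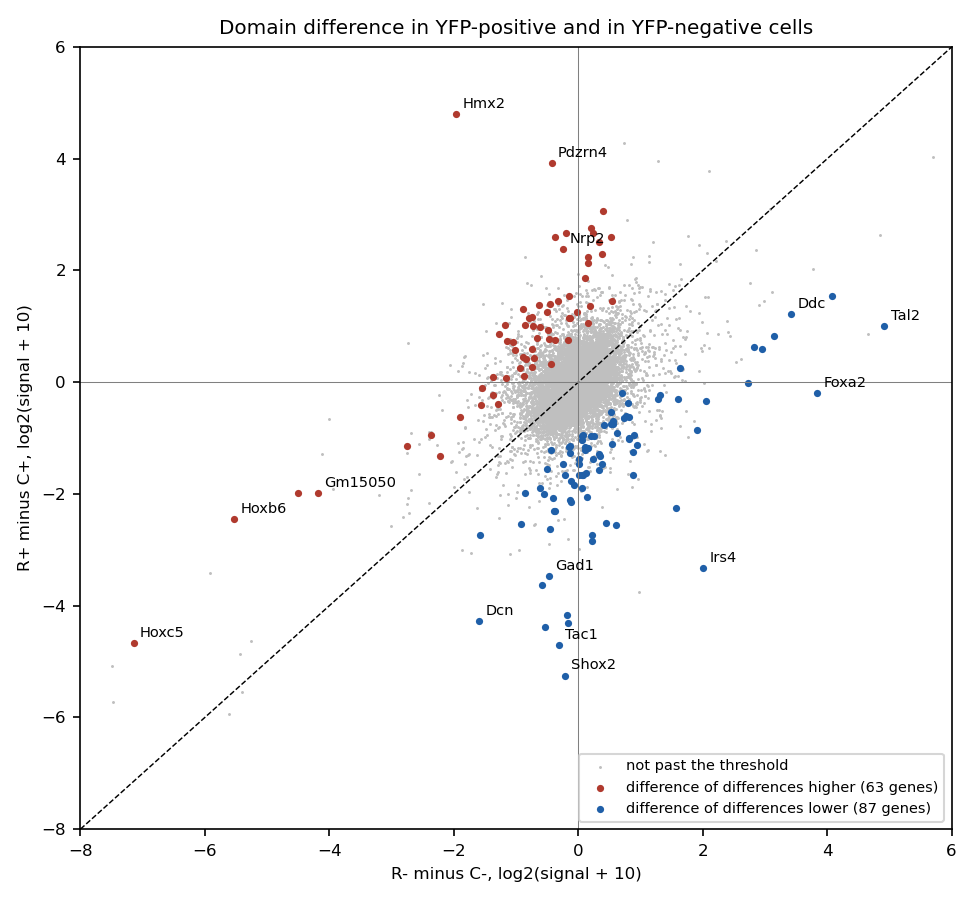
Each point is a gene, placed by its R- minus C- difference on the horizontal axis and its R+ minus C+ difference on the vertical axis, both in log2(signal + 10). The difference of differences is the vertical distance from the dashed line of equal differences; the 63 genes with a higher value lie above it, Hmx2 farthest, and the 87 with a lower value lie below it, Irs4 and Shox2 farthest.

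For most of the 150 genes it was the YFP-positive component that passed a test of its own. Among the 63 higher genes, 33 differed only between R+ and C+ by that component's own test, 16 only between R- and C-, 8 in both in the same direction and 4 in both in opposite directions, and 2 (Enc1 and Nxph1) in neither. Among the 87 lower genes the numbers were 57, 14, 6, 10 and 0. To say which group stood apart, a group was named when its mean lay beyond the other 3 by more than the range of those 3 and all 3 of its arrays lay beyond the other 9. A single group met this for 99 of the 150 genes, against 1350 of all 12845. For the higher genes it was R+ on the high side (18 genes), C- on the high side (13), C+ on the low side (8) or R- on the low side (2). For the lower genes it was C+ on the high side (26 genes), R+ on the low side (18), R- on the high side (9) or C- on the low side (5). Over all genes the order of these groups was not the same. Of the 1350 genes C+ on the high side held 23.7%, R+ on the low side 16.5%, C+ on the low side 14.5% and R+ on the high side 9.41%, where the 99 genes had 26.3%, 18.2%, 8.08% and 18.2%. The YFP-negative groups held 35.9% there and 29.3% here. These group means come from the same values as the contrast, so the groups are a description with no test of their own.

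**Figure D2:**
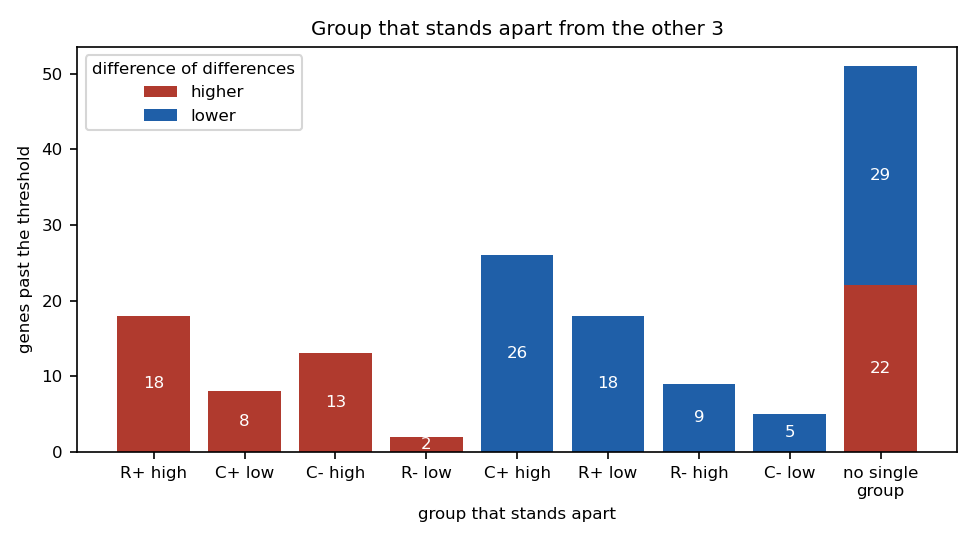
Bars count the genes past the threshold by the group that stood apart from the other 3, in red for a higher and in blue for a lower difference of differences. C+ on the high side was the most frequent with 26 genes, as it was over all 12845 genes, R+ stood apart on the high side in 18 and on the low side in another 18, and for 51 genes no single group met the rule.

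The largest value of all belonged to Hmx2, which encodes a homeobox transcription factor. Its signals were 3999, 2915 and 3200 in R+, 45, 32 and 84 in R-, 194, 58 and 116 in C+, and 197, 318 and 178 in C-. Every R+ array lay far above every other array, and the YFP-negative cells ran the other way, with all 3 C- arrays above all 3 R- arrays. The difference of differences was 6.76 ± 0.53 (SE, adjusted p = 5.13e-06), made of 4.80 ± 0.38 between R+ and C+ and -1.96 ± 0.38 between R- and C- (adjusted p = 0.0093). All 3 R- arrays lay below 107, the median of all values, so that the size of the R- minus C- component is uncertain. Hmx3, the neighbouring gene of the same family, had signals of 1006, 512 and 666 in R+ and between 39 and 144 on the 9 other arrays. Its value was 2.45 ± 0.55 (adjusted p = 0.0462), and the call was lost in 10 of the 12 fits that each left out 1 array.

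The windows of 250 bases before the start sites of these neighbours, and of Shox2 and Tac1, which had among the smallest p-values in the opposite direction, are shown because members of each pair moved together. They are RefSeq sequences of build GRCm38.p6, written 5' to 3' on the gene's own strand, with capitals for any match on either strand to any of 4 motifs: the letters AGATAA, which zinc finger factors such as Gata2 bind, the letters TAATTA, which many homeodomain proteins bind, the letters GTAAACA, which forkhead proteins bind, and the letters CCGGAA, which ETS proteins such as Pet-1 bind.
Hmx3 (chr7:131542713-131542962, + strand): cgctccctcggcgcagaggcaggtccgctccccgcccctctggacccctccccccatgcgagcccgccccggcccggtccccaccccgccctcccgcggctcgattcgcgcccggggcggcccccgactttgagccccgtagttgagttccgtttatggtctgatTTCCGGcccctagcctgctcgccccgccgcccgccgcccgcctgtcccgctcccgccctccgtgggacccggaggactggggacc
Hmx2 (chr7:131548507-131548756, + strand, the more upstream of 2 starts): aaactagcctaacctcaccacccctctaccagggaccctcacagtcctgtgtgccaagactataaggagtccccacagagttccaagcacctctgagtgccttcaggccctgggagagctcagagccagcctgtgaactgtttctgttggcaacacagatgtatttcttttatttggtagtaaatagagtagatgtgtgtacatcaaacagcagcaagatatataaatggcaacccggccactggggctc
Shox2 (chr3:66981772-66982021, - strand): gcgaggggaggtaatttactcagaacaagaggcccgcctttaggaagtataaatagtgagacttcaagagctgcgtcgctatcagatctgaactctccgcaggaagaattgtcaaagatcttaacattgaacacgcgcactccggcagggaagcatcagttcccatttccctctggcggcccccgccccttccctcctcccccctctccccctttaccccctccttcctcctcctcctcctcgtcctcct
Tac1 (chr6:7554811-7555060, + strand): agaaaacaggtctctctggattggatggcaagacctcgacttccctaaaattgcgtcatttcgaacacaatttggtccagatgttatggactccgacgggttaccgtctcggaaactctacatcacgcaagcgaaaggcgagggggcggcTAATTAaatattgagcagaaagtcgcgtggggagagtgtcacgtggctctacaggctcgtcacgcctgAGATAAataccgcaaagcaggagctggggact
Tac1 held a match for the Gata2-type motif and a homeodomain match, Hmx3 an ETS match on the reverse strand, and Hmx2 and Shox2 none of the 4 motifs in these windows. The letters AGATAA stood in 9.99% of all 32851 promoter windows of this length, in 2.74% of the 73 windows of higher genes and in 5.43% of the 92 windows of lower genes. For the homeodomain letters the shares were 4.84%, 5.48% and 2.17%, for the forkhead letters 3.17%, 4.11% and 3.26%, and for the ETS letters 12%, 11% and 13%. Windows were found for 114 of the 150 genes.

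R+ stood apart on the high side in 16 further genes, several of which encode surface and secreted proteins. Pdzrn4, a PDZ and RING finger protein, had signals of 9157, 5640 and 4755 in R+, 1023, 652 and 747 in R-, 696, 276 and 343 in C+, and 1288, 951 and 996 in C- (difference of differences 4.34 ± 0.43, adjusted p = 6.51e-05). Nrp2, a receptor for class 3 semaphorins and for vascular endothelial growth factors, had signals of 8284, 6066 and 5799 in R+, 2846, 2246 and 1956 in R-, 1408, 1242 and 1150 in C+, and 2875, 2588 and 2772 in C-. Nrp2 was thus highest in R+ and lowest in C+, with the YFP-negative groups between them and overlapping each other, and the value was 2.62 ± 0.23 (adjusted p = 2.04e-05). Another probe set of Nrp2 gave 2.94 ± 0.36 (adjusted p = 0.00123 when all probe sets were fitted), and a further one gave 2.38 ± 0.57 (adjusted p = 0.11).

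Further genes of this R+ group encode enzymes and adhesion proteins. Pcsk5, a proprotein convertase that cuts secreted precursors, read 3089, 2485 and 1815 in R+, 492, 316 and 372 in C+, and at most 171 on any YFP-negative array (2.98 ± 0.42, adjusted p = 0.00162). Pcsk5 was therefore present above the YFP-negative cells in both domains and several times higher in the rostral one. Vstm2a, a secreted immunoglobulin-domain protein, read 1447, 1514 and 1228 in R+ and 142 to 258 on all other arrays (2.67 ± 0.29, adjusted p = 0.000131). The cadherin Cdh13 read 4521, 4307 and 4426 in R+ and 773 to 1383 elsewhere (2.09 ± 0.22, adjusted p = 8.97e-05), and the protocadherin Pcdh19 read 3409, 3297 and 3086 in R+, 1409 to 1482 in R- and 579 to 1421 in the caudal groups (1.91 ± 0.23, adjusted p = 0.00031). In all of these genes the R+ arrays lay above every other array. Hs6st2, which adds sulfate to heparan sulfate chains, had a value of 2.54 ± 0.35 (adjusted p = 0.00116) and the Ly6-family protein Lypd1 one of 1.98 ± 0.22 (adjusted p = 0.000199). Further values in this group were those of the phosphatase subunit Ppp2r2b (2.07 ± 0.41), the sorting receptor Sorcs1 (2.02 ± 0.40), the GABA receptor subunit Gabrb1 (1.76 ± 0.39), the synaptic adhesion protein Slitrk5 (1.76 ± 0.39), the Golgi mannosidase Man2a1 (1.41 ± 0.24), the amino acid transporter Slc6a15 (1.29 ± 0.25), the spindle checkpoint gene Bub3 (1.18 ± 0.16) and the nuclear receptor gene Nr2f2 (0.90 ± 0.20). Of these 8, Man2a1 and Bub3 kept their calls without any single array, whereas Ppp2r2b, Sorcs1, Gabrb1, Slitrk5, Slc6a15 and Nr2f2 lost theirs in 2 to 10 of the 12 such fits.

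**Figure D3:**
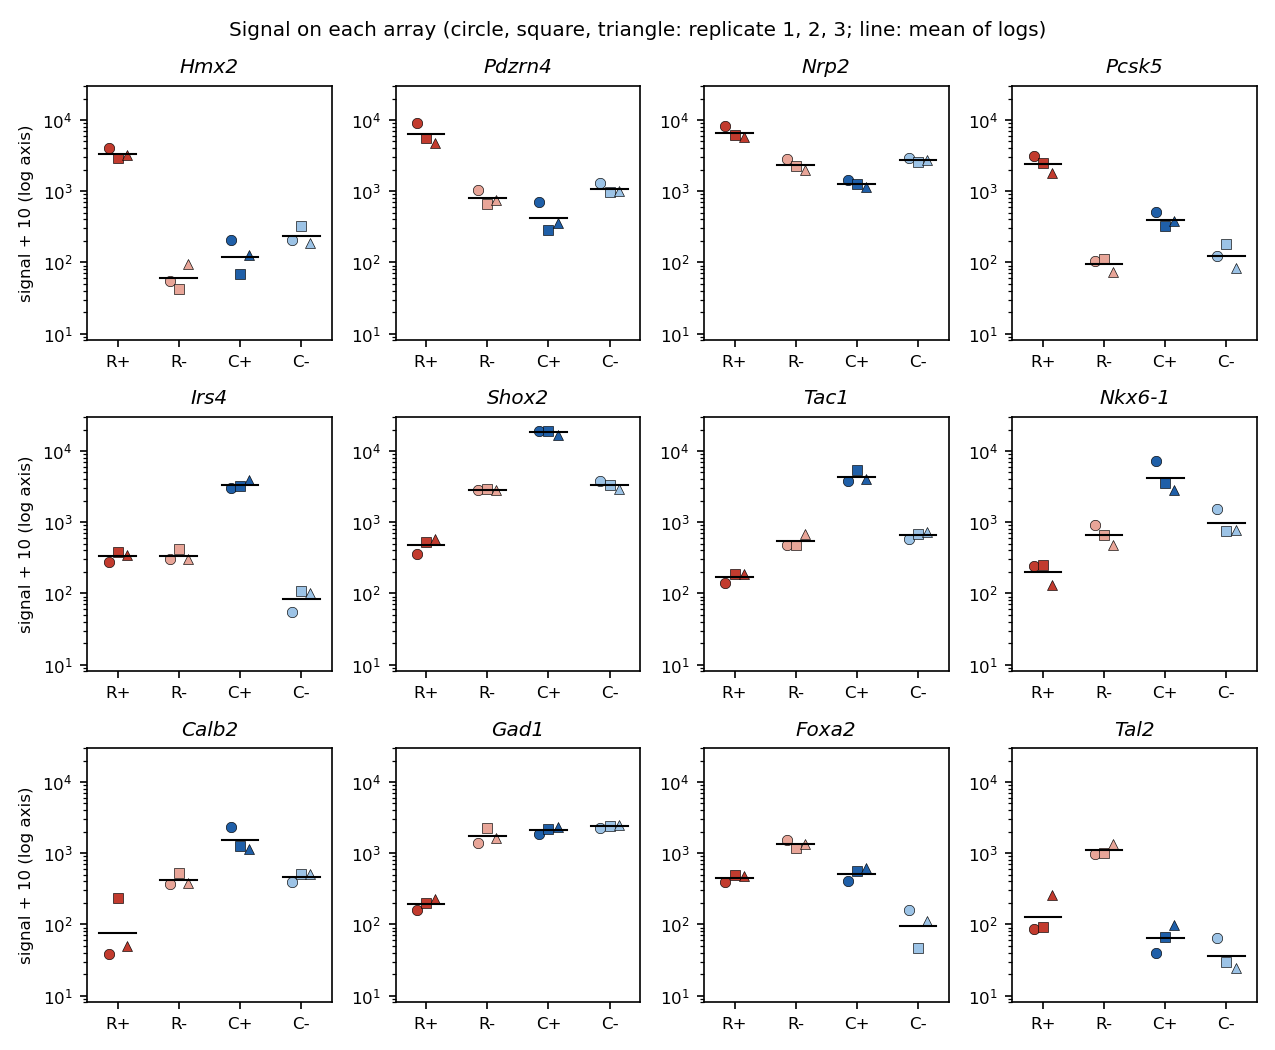
Signal plus 10 on each of the 12 arrays, on a log axis, for 12 genes; circles, squares and triangles are replicates 1, 2 and 3 and the line is the mean of the logs. R+ alone is high for Hmx2, Pdzrn4, Nrp2 and Pcsk5, C+ alone is high for Irs4 and Tac1, R+ is low for Calb2 and Gad1, and for Foxa2 and Tal2 a YFP-negative group stands apart.

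On the caudal side, Shox2 and Tac1 showed no domain difference past the threshold in the YFP-negative cells and a large one in the YFP-positive cells. Shox2, a homeobox transcription factor, read 342, 523 and 570 in R+, 2814, 2937 and 2829 in R-, 19007, 18830 and 16780 in C+, and 3831, 3284 and 2945 in C-. The YFP-negative groups sat close together at a middle level, C+ lay above them and R+ below them, and no array crossed between these 3 levels. The difference of differences was -5.03 ± 0.24 (adjusted p = 3.81e-08), the smallest p of all genes, of which -5.25 came from R+ minus C+ and -0.22 from R- minus C- (adjusted p = 0.59). Tac1, the precursor of substance P and neurokinin A, read 130, 174 and 174 in R+, 467, 469 and 664 in R-, 3763, 5461 and 4036 in C+, and 569, 682 and 726 in C-. Its order was the same as that of Shox2, with C+ highest, R+ lowest and the YFP-negative groups between them, and its value was -4.39 ± 0.28 (adjusted p = 1.13e-06).

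The same ladder, with C+ above both YFP-negative groups and R+ below them, held for Nkx6-1, Ndnf and Igfbp4. Nkx6-1, a homeobox factor of the ventral neural tube, read 236, 237 and 122 in R+, 915, 658 and 474 in R-, 7259, 3570 and 2802 in C+, and 1515, 749 and 773 in C- (-3.85 ± 0.52, adjusted p = 0.00114). Ndnf, a secreted neuron-derived factor, read 119, 173 and 182 in R+, 1899, 1923 and 2333 in C+ and 354 to 812 on the YFP-negative arrays (-3.04 ± 0.32, adjusted p = 8.97e-05). Igfbp4, which binds insulin-like growth factors, read 1959, 2562 and 2558 in R+, 6919, 7800 and 7589 in C+ and 3062 to 5297 on the YFP-negative arrays (-1.44 ± 0.24, adjusted p = 0.00599). Grik3, a kainate receptor subunit, had its value of -1.62 ± 0.35 (adjusted p = 0.0397) from the same order of means, and lost its call in 8 of the 12 fits without 1 array.

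C+ stood apart on the high side in 26 genes, Tac1 included. Irs4, an insulin receptor substrate, read 269, 368 and 340 in R+, 296, 410 and 289 in R-, 2976, 3183 and 3889 in C+, and 45, 97 and 91 in C-. The rostral groups overlapped for Irs4, while the caudal ones held both the highest and the lowest arrays, so that the YFP-positive difference of -3.33 ± 0.25 and the YFP-negative difference of 2.00 ± 0.25 added to -5.33 ± 0.35 (adjusted p = 1.28e-06). All 3 C- arrays of Irs4 lay below 107, so that the size of the YFP-negative difference is uncertain. Trh, the precursor of thyrotropin-releasing hormone, read 824, 592 and 719 in C+ and 9 to 57 on the 9 other arrays (-3.98 ± 0.75, adjusted p = 0.0137). Trh passed the filter only through C+, and its call was lost without any of the 3 C+ arrays. Diras2, a Ras-family GTPase, read 8058, 9449 and 10337 in C+ and 1474 to 1665 in R+ (-3.16 ± 0.21, adjusted p = 1.28e-06), and its call was lost when the probe sets of a gene were averaged. Cntnap5a, a contactin-associated adhesion protein, read 2019, 2216 and 2238 in C+ and 201 to 336 on all other arrays (-3.06 ± 0.24, adjusted p = 4.93e-06). Mlf1, myeloid leukemia factor 1, read 3212, 3368 and 3371 in C+ and 228 to 498 on all others (-2.96 ± 0.22, adjusted p = 2.96e-06). For both of these the C+ arrays were tightly grouped and far from the rest.

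Dlk1, a transmembrane ligand related to Notch ligands, read 24779, 16639 and 14183 in C+ and between 1498 and 4020 elsewhere (-2.96 ± 0.40, adjusted p = 0.00104), and another probe set gave -4.16 ± 0.25. Dcn, the matrix proteoglycan decorin, read 2494, 2178 and 2364 in C+, 502, 292 and 457 in C-, and 75 to 166 on the rostral arrays (-2.69 ± 0.41, adjusted p = 0.003). Dcn is also a mesenchyme marker. The 11 measured genes of that list summed to 4175 to 4801 in C+, 1719 to 2646 in R+, 8859 to 10548 in C- and 7323 to 9051 in R-. Without Dcn the other 10 summed to 1811 to 2307 in C+ and 1611 to 2480 in R+, which overlapped, against 8567 to 10046 in C- and 7235 to 8894 in R-. The differences of differences of the 11 ran from -2.69 for Dcn to 2.84 for Pdgfra, with a median of 0.27. The matrix protein F-spondin (Spon1) read 4600, 8344 and 7575 in C+ and 1990 to 3567 elsewhere (-1.65 ± 0.26, adjusted p = 0.00414). Other members of the C+ group were the transmembrane collagen Col25a1 (-2.17 ± 0.35), the GTPase Rit2 (-2.03 ± 0.33), the membrane protein Tmem178 (-1.97 ± 0.21), the cadherin Cdh6 (-1.95 ± 0.27), Vat1l (-1.82 ± 0.26), Magel2 (-1.75 ± 0.18), Tmtc2 (-1.39 ± 0.21) and Klhdc10 (-1.0 ± 0.16), whose calls were kept without any single array. The calls of Adamts12, Lrrtm1, Tent5a, Ptchd1, Rsrc1, Nell2, Mest, Tpd52 and Klf6, with values from -1.78 to -1.01, were each lost without at least 1 array.

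R+ stood apart on the low side in 18 genes, among them Gad1, the enzyme that makes GABA, and Calb2, the calcium-binding protein calretinin. Gad1 read 147, 187 and 218 in R+, 1398, 2210 and 1611 in R-, 1836, 2182 and 2357 in C+, and 2270, 2408 and 2441 in C- (-3.00 ± 0.26, adjusted p = 1.8e-05). With this probe set of Gad1, C+ thus lay within the range of the YFP-negative groups and R+ alone lay below it. A dimmer probe set of Gad1 gave -0.31 ± 0.73 and did not pass. Its means were 33.7 in R+, 69.3 in C+, 122.3 in R- and 166 in C-, so that C+ also lay below the YFP-negative means. The vesicular GABA transporter Slc32a1 did not pass (-0.90 ± 0.31, adjusted p = 0.338), with mean signals of 304 in R+, 620 in C+, 3097 in R- and 3394 in C-, and the other GABA-synthesising enzyme, Gad2, had a value of 0.08 ± 0.31 with means of 213 in R+ and 269 in C+. Calb2 read 28, 222 and 39 in R+, 354, 508 and 369 in R-, 2340, 1258 and 1138 in C+, and 386, 492 and 505 in C- (-4.14 ± 0.70, adjusted p = 0.00693); its R+ arrays were low but uneven, and C+ was also above the YFP-negative groups.

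The homeobox cofactors Meis2 and Meis1, partners of Hox proteins, belonged to the same R+ group. Meis2 read 2790, 3453 and 3118 in R+, 10273, 10060 and 7172 in R-, 13503, 18694 and 14515 in C+, and 11130, 13808 and 10603 in C- (-1.93 ± 0.24, adjusted p = 0.000394), and 2 other probe sets of Meis2 passed in the same direction. Meis1 had a smaller value (-1.14 ± 0.20, adjusted p = 0.00782), with R+ at 712 to 885 and C+ at 2877 to 3480, and it also differed between R- and C- (-0.85, adjusted p = 0.00283). The Notch ligands Dll3 (-1.33 ± 0.23, adjusted p = 0.00738) and Dll1 (-1.10 ± 0.21, adjusted p = 0.0159) were lower in R+ than in the 3 other groups, which overlapped. Dll1 lost its call without R+ 2, R+ 3 or R- 3. Epha3, an ephrin receptor, read 381, 332 and 400 in R+ and 1140 to 1990 elsewhere (-1.28 ± 0.22, adjusted p = 0.00724). Further members were the vesicle protein Syt4 (-1.91 ± 0.36, lost without R+ 3), Lratd1 (-1.91 ± 0.23), the actin-associated palladin gene Palld (-1.84 ± 0.32), the Reelin adaptor Dab1 (-1.67 ± 0.29), Lhfp (-1.66 ± 0.21), Pon2 (-1.62 ± 0.29), and 5 genes with calls that were lost without some arrays, Lmcd1, Wscd1, Cdh4, Adcyap1r1 and Pid1, at -2.19 to -1.06.

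C+ stood apart on the low side in 8 genes. A930009L07Rik read 428, 368 and 354 in C+, 2536, 2702 and 2244 in R+, and 956 to 1475 on the YFP-negative arrays (2.86 ± 0.22, adjusted p = 4.93e-06). Gfra1, the receptor for glial cell line-derived neurotrophic factor, read 785, 873 and 916 in C+, 4835, 5310 and 4690 in R+, 2382, 3461 and 2892 in R-, and 2197, 2448 and 2234 in C- (2.19 ± 0.20, adjusted p = 2.81e-05). For both genes R+ was also the highest group, so that they mirror the ladder of Shox2. Phlda1 read 1025, 1047 and 1052 in C+ and 2738 to 5044 elsewhere (1.68 ± 0.20, adjusted p = 0.000283). Frat1, a GSK3-binding protein, had a value of 1.85 ± 0.34 (adjusted p = 0.0108). Ptprm, Myh7 and Kif26b, at 1.77, 1.26 and 0.93, lost their calls in 10 or 11 of the 12 fits without 1 array.

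In 29 genes it was a YFP-negative group that stood apart, Hoxb6 among them. Hoxb6 read 47, 111 and 108 in R+, 46, 115 and 66 in R-, 308, 608 and 659 in C+, and 3502, 4010 and 3725 in C- (3.09 ± 0.50, adjusted p = 0.00486). The rostral arrays lay near 107, the median of all values, so the positive value rests on the C- level being above that of C+. Hoxc5 also had C- above C+ and both above the rostral groups, but no single group met the rule for it (2.47 ± 0.50, adjusted p = 0.0224). Its means were 524 in C+, 6124 in C-, 10.7 in R+ and 36.3 in R-. The call of Hoxc5 was lost in 6 of the 12 fits without 1 array. A dimmer probe set gave -1.07 ± 0.72 and another gave 4.10 ± 1.04, and neither passed. Hoxb5os, a transcript that overlaps Hoxb5 and Hoxb6 (2.51 ± 0.50, lost without R+ 3 or C- 3), and Gm15050, which overlaps Hoxa3 (2.20 ± 0.31), moved with them, and these probe sets may share transcripts with their overlapping genes. Of 20 measured Hox genes 2 were higher (10%) and 0 lower, and 4 and 0 with the replicate block. The shares over all genes were 0.49% and 0.677%, and 1.1% and 1.55% with the block. The median of the list was 0.79, against -0.01 over all genes. Most of the list did not pass, for example Hoxb3 with -0.32 ± 0.50 (means of 8822 in C+ and 12570 in C-). Hoxa4 (2.50) and Hoxb5 (1.46) did not pass either.

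Foxa2, Foxa1 and Shh, which are made by the floor plate and its neighbours, were set apart by a low C- level. Foxa2 read 380, 486 and 468 in R+, 1503, 1189 and 1314 in R-, 392, 552 and 601 in C+, and 148, 37 and 101 in C- (-4.03 ± 0.47, adjusted p = 0.000283). The YFP-positive groups overlapped for Foxa2, and its value came from the 3.84 ± 0.33 between R- and C-. Its C- arrays at 37 and 101 lay below 107, the median of all values, so that the size of this difference is uncertain. Foxa1 read 1009, 1478 and 1255 in R+, 1305, 1098 and 842 in R-, 489, 1011 and 1082 in C+, and 104, 157 and 133 in C- (-2.35 ± 0.39, adjusted p = 0.00607). Shh, the ventral morphogen, read 1526, 2863 and 2208 in R+, 2174, 2633 and 2381 in R-, 1897, 5595 and 5351 in C+, and 562, 892 and 504 in C- (-2.75 ± 0.49, adjusted p = 0.00977). Ddc, the second enzyme of serotonin synthesis and also an enzyme of dopamine synthesis, read 15667, 15207 and 14259 in R+, 1739, 1321 and 1315 in R-, 5848, 6286 and 7292 in C+, and 117, 125 and 135 in C-. Ddc was higher rostrally in both populations, by 1.22 between R+ and C+ and by 3.43 between R- and C-, which gave -2.21 ± 0.20 (adjusted p = 2.39e-05). Its call was lost when probe sets were averaged.

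R- stood apart on the high side in 9 genes, among them transcription factor genes known from the midbrain and forebrain. Tal2, a basic helix-loop-helix factor of midbrain GABA neurons, read 950, 1003 and 1327 in R-, 76, 83 and 251 in R+, and 14 to 89 on the caudal arrays (-3.92 ± 0.70, adjusted p = 0.00919). Dmrta2 read 4504, 2365 and 2770 in R-, 332, 462 and 424 in R+, and 84 to 258 on the caudal arrays (-2.53 ± 0.49, adjusted p = 0.0181), and lost its call without R- 1 or C+ 2. Six3 read 1593, 951 and 1013 in R-, 184 to 296 in R+ and 85 to 167 caudally (-2.33 ± 0.40, adjusted p = 0.00724). In each of these R+ carried a low signal and the domain difference lay mainly in the YFP-negative cells. Nr4a2, a nuclear receptor of dopamine neurons, read 5327, 3573 and 3055 in R- and 558 to 1401 elsewhere (-1.91 ± 0.26, adjusted p = 0.00104), and its call was lost when probe sets were averaged. When all probe sets were fitted, another of Nr4a2 gave -1.74 ± 0.32 (adjusted p = 0.0267). The remaining ones gave -0.97 ± 0.64 and -0.15 ± 0.87 without passing. Tcf24 (-2.76 ± 0.54), the peptide precursor Spx (-2.39 ± 0.38), the matrix protein nephronectin (Npnt, -2.19 ± 0.36), Akr1b8 (-1.58 ± 0.28) and Vxn (-1.43 ± 0.22) completed the group. Tcf24 passed the filter only through R- (348, 544 and 530, against 34 to 93 elsewhere), and it lost its call without R- 2 or R- 3. The value of Npnt was -0.84 with its probe sets averaged, where it did not pass (adjusted p = 0.608), and 2 dimmer probe sets had the opposite sign without passing. A further probe set of Npnt gave -1.98 ± 0.48 and did not pass.

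Among the other genes with a high C- level were Nptx1, a neuronal pentraxin (2.19 ± 0.35), the homeobox cofactor Pknox2 (1.88 ± 0.32), the glycolytic enzyme Aldoc (1.61 ± 0.30), the ligand Wnt5a (1.47 ± 0.28), the scaffold protein Lin7a (1.34 ± 0.24) and the splicing factor Rbfox1 (1.15 ± 0.20). Wnt5a read 1468, 1696 and 1549 in C- and 298 to 617 elsewhere, and its call was lost without R+ 3. Dimmer probe sets of Wnt5a gave 2.30 ± 0.52 and -0.03 ± 0.69, and neither passed. Lamp5 read 10279, 9575 and 9211 in C-, 422 to 542 in R+, 1953 to 2126 in R- and 1185 to 1340 in C+, and with higher caudal signals in both populations its value was small (0.91 ± 0.18, adjusted p = 0.0234). The calls of Lamp5, Cntnap2 (0.90), Chmp2b (1.29) and Slc37a4 (1.22) were lost without 4 to 11 single arrays. C- was on the low side for Npas3 (-0.90 ± 0.19), and R- for the adenylyl cyclase Adcy2 (1.44 ± 0.28) and the neurotrophin receptor Ntrk3 (1.19 ± 0.25), all 3 with calls lost without some arrays.

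In 14 genes the domain difference passed in both populations and ran in opposite directions. Besides Hmx2, the glycine receptor subunit Glra2, Nptx1 and Tafa2 were higher in R+ than in C+ and lower in R- than in C-. Glra2 read 484, 434 and 441 in R+ against 258, 243 and 230 in C+, and 333, 364 and 302 in R- against 863, 880 and 720 in C- (2.14 ± 0.23, adjusted p = 0.000125). Irs4, Diras2, Gabrb2, Vat1l, Pcdh8, Epb41l4a, Vxn, Tox2, Zcchc12 and Ntn1 ran the other way. Tox2, an HMG-box factor, read 9889, 11690 and 10138 in R+ against 15650, 17883 and 15981 in C+, and 8375, 8633 and 7245 in R- against 4786, 4772 and 5013 in C- (-1.37 ± 0.16, adjusted p = 0.000263). Netrin-1 (Ntn1), an axon guidance molecule of the ventral midline, read 2970, 3452 and 2910 in R+ against 4093, 5678 and 5470 in C+, and 3739, 3777 and 3462 in R- against 2640, 2359 and 2491 in C- (-1.25 ± 0.19, adjusted p = 0.00384). For Glra2, Tox2 and Ntn1 the arrays of the 2 domains did not overlap in either population. Pcdh8, a protocadherin, had -1.0 in YFP-positive and 0.81 in YFP-negative cells, and Gabrb2, a GABA receptor subunit, -0.94 and 0.89.

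**Figure D4:**
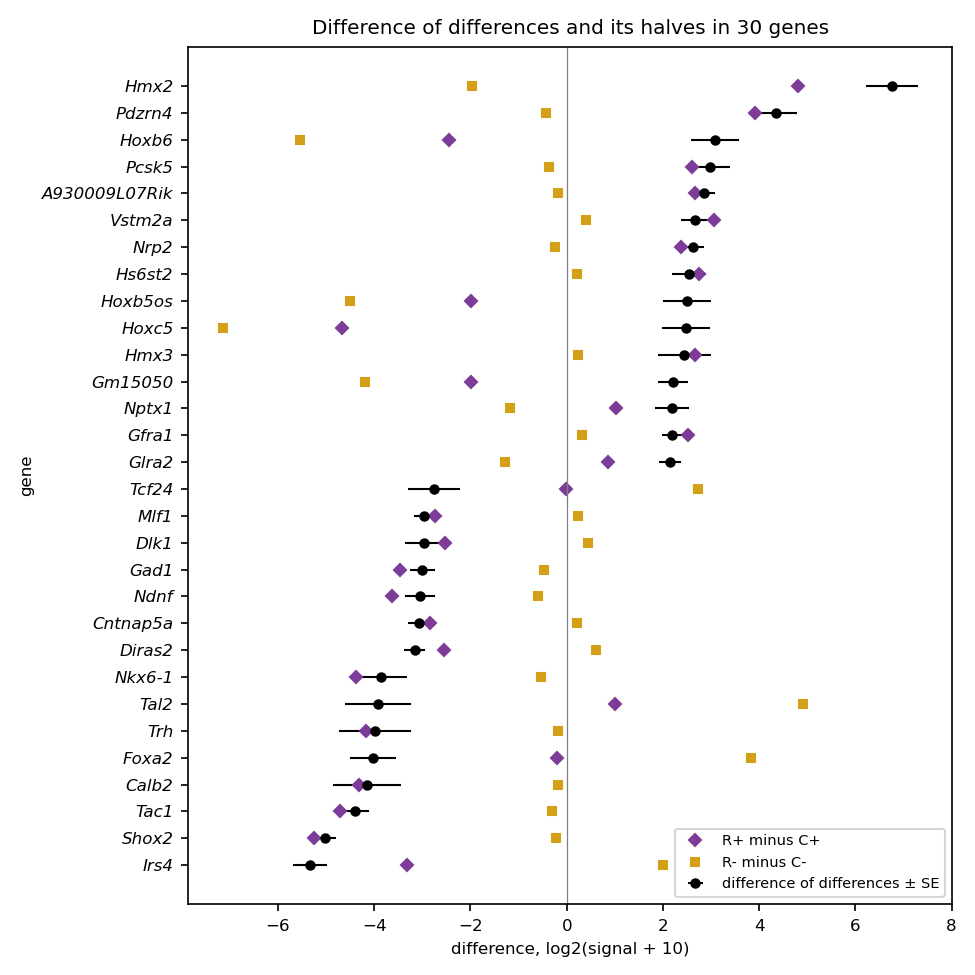
For the 15 genes per direction with the largest difference of differences under the naming rule, black points with bars give it ± SE, purple diamonds the R+ minus C+ component and yellow squares the R- minus C- component, all in log2(signal + 10). The black point lies on or near the diamond for genes such as Shox2, Tac1, Nkx6-1 and Vstm2a, the square is far from 0 for Foxa2, Tal2, Tcf24 and the Hox genes, and the diamond and square lie on opposite sides of 0 for Hmx2, Irs4, Diras2, Glra2 and Nptx1.

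For 51 genes no single group stood apart. Among the 22 higher ones the highest 2 groups were R+ and C- in 12, C- and R- in 5, R+ and C+ in 3 and C- and C+ in 2. Among the 29 lower ones they were C+ and R+ in 11, C+ and R- in 9, C+ and C- in 8 and C- and R- in 1. The R+ and C- pattern was seen for the LIM-only gene Lmo4 (1.91 ± 0.41), the transcription factor gene Mef2c (2.19 ± 0.41) and the corepressor Tle2 (1.95 ± 0.33), of which only Tle2 kept its call without any single array. Genes high in both YFP-positive groups could still differ in degree. The glucocorticoid receptor gene Nr3c1 read 623 to 720 in R+, 1953 to 2295 in C+ and 41 to 107 on the YFP-negative arrays (-1.74 ± 0.36, adjusted p = 0.0258; lost without 8 single arrays). Cntn1, a contactin, read 2804, 2517 and 2549 in R+, 1261, 1115 and 1538 in C+ and 263 to 660 on the YFP-negative arrays (1.75 ± 0.32, adjusted p = 0.0107), and the transporter gene Slc6a17 read 3694, 3882 and 3186 in R+, 1444, 1640 and 1741 in C+ and 452 to 587 elsewhere (1.28 ± 0.22, adjusted p = 0.00725).

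Of 7 measured serotonin neuron markers 2 were lower (Ddc and Gata2, 28.6%) and 0 higher, and with the replicate block 3 and 0. Over all genes 0.677% were lower and 0.49% higher, and 1.55% and 1.1% with the block, while 7.15% had an unadjusted p below 0.05. Of 15 genes for serotonin synthesis, transport and breakdown 1, Ddc, was lower and 0 higher. Tryptophan hydroxylase 2 (Tph2) had a value of 0.95 ± 0.48 (adjusted p = 0.756), the serotonin transporter Slc6a4 one of -0.83 (adjusted p = 0.804) and the vesicular transporter Slc18a2 one of 0.70 (adjusted p = 0.41). Of 8 serotonergic transcription factors 1 was lower, Gata2 (-1.18 ± 0.22, adjusted p = 0.0117), and 3 were with the replicate block. The call of Gata2 was lost when its probe sets were averaged (-0.93, adjusted p = 0.059) and in a fit without the trend (adjusted p = 0.0507), and its other probe set gave -0.68 ± 0.33 (adjusted p = 0.907). Gata2 read 6060, 6745 and 5949 in R+, 8003, 8130 and 8257 in C+, 1112, 1642 and 1301 in R-, and 686, 912 and 713 in C-. Gata3 stood at -1.15 ± 0.31 (adjusted p = 0.118, and 0.00738 with the replicate block), with means of 8462 in R+, 10140 in C+, 1190 in R- and 661 in C-, and Lmx1b at 0.51 (adjusted p = 0.921). Among 8 serotonin receptor genes 0 passed in limma, with or without the block, and 1 had an unadjusted p below 0.05; Htr2c had the largest value (-1.83 ± 0.56, adjusted p = 0.221), with a mean of 408 in C+ and 66 in R+.

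Of 14 measured ventral patterning genes 5 were lower (Foxa2, Nkx6-1, Shh, Foxa1 and Nkx2-2) and 0 higher, where 0.677% of all genes were lower, and the list median was -0.61. Nkx2-2, which specifies serotonin progenitors, read 2782, 2384 and 2610 in R+ and 2806, 2041 and 1763 in C+, which overlapped, but 413, 340 and 365 in R- against 112, 104 and 124 in C- (-1.37 ± 0.25, adjusted p = 0.0108). The larger component lay in the YFP-positive cells for Nkx6-1 and in the YFP-negative cells for the other 4. For Shh the components were -0.85 ± 0.35 between R+ and C+ and 1.90 ± 0.35 between R- and C-. Among 21 genes that mark the midbrain, the isthmus or the anterior hindbrain 1 was lower, Tal2, and with the replicate block 3 were higher and 2 lower. Over all genes 0.49% were higher and 0.677% lower, and 1.1% and 1.55% with the block. Otx2 did not pass (-2.21 ± 0.75, adjusted p = 0.331) although its mean was 1591 in R- against 186 in R+, 58.7 in C- and 20.0 in C+. The engrailed genes En1 (1.69 ± 0.41, adjusted p = 0.0726) and En2 (-1.67 ± 0.47, adjusted p = 0.162) had values of opposite sign: En1 had means of 1457 in R+ and 487 in R-, and En2 of 2209 and 3611. Both passed with the block (adjusted p = 0.0133 and 0.0384).

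Among 32 homeobox factors of neuronal subtypes 2 were higher (Hmx2 and Hmx3) and 2 lower (Shox2 and Six3), and with the replicate block 5 and 4. Each was 6.25% without the block, where 0.49% of all genes were higher and 0.677% lower (1.1% and 1.55% with the block). Among 9 Meis and Pbx family genes 1 was higher (Pknox2) and 2 lower (Meis2 and Meis1). Of 24 neuropeptide precursors 3 were lower (Tac1, Trh and Cartpt) and 0 higher, and with the block 1 was higher. Trh is among the 3 only because the filter kept it through C+. Cartpt, the CART peptide precursor, was driven by YFP-negative cells, with 1790, 1340 and 1829 in R- against 503 to 764 in C- (-1.54 ± 0.31, adjusted p = 0.0217), and its call was lost without 6 single arrays. Penk, which encodes the enkephalin precursor, had means of 2522 in R+ and 5964 in C+ but did not pass (-0.94 ± 0.30, adjusted p = 0.279).

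Of 28 semaphorins, plexins and neuropilins 2 were higher (7.14%), Nrp2 and the semaphorin coreceptor Plxna2, and 0 lower. For this and the next lists the shares over all genes were 0.49% higher and 0.677% lower (1.1% and 1.55% with the block). Plxna2 read 607, 719 and 585 in R+, 482, 424 and 500 in C+, 1390 to 1606 in R- and 2423 to 2455 in C- (1.14 ± 0.19, adjusted p = 0.00724), so its value was made of 0.43 between R+ and C+, whose arrays did not overlap, and -0.70 between R- and C-. Its call was lost when its probe sets were averaged. Of 18 Slit, Robo, netrin and DCC family genes Draxin was higher (1.23 ± 0.28, adjusted p = 0.0496, lost without 10 single arrays) and Ntn1 lower, and of 18 Eph receptors and ephrins 1 was lower (Epha3) and 0 higher. Of 27 cadherins and protocadherins 2 were higher (Cdh13 and Pcdh19) and 3 lower (Cdh6, Pcdh8 and Cdh4), and with the block 4 and 3. Cdh8 showed a large value that missed the threshold (2.68 ± 0.67, adjusted p = 0.0853, and 0.0353 with the block), with means of 64.7 in C+, 94.0 in C-, 929 in R+ and 236 in R-. Of 29 immunoglobulin adhesion molecules 2 were higher (Cntn1 and Cntnap2) and 1 lower (Cntnap5a), and with the block 4 and 3.

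Of 33 growth factors and receptors 3 were higher (Gfra1, Ngfr and Ntrk3) and 2 lower (Irs4 and Igfbp4), and with the block 4 and 4. The shares without the block were 9.09% and 6.06%, against 0.49% and 0.677% over all genes (1.1% and 1.55% with the block). Ngfr, the p75 neurotrophin receptor, had a value of 1.24 ± 0.26 (adjusted p = 0.0258), and the calls of Ngfr and Ntrk3 were each lost without 9 single arrays. Of 29 Wnt pathway genes Wnt5a alone passed. Counts of 0 or 1 gene in lists of this size are not told apart from the 1.17% of all genes that passed. An unadjusted p below 0.05 was reached by 7.15% of all genes. Of 36 neurotransmitter receptor genes 2 were higher (Glra2 and Gabrb1) and 2 lower (Gabrb2 and Grik3), of 29 vesicle and granule genes 1 was lower (Syt4) and with the block 2 were also higher, and of 11 retinoic acid and 23 potassium channel genes 0 passed in limma, or 0 and 1 with the block (1 and 3 at an unadjusted p below 0.05).

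Markers of other cell types were read the same way, against 0.49% higher and 0.677% lower over all genes (1.1% and 1.55% with the block). Of 18 genes of GABA and glycine neurons 3 were lower (Tal2, Gad1 and Gata2) and 0 higher, and with the block 4 and 1. Of 11 dopamine and noradrenaline neuron genes 2 were lower (Foxa2 and Nr4a2), while tyrosine hydroxylase (Th) did not pass (-1.15 ± 0.53, adjusted p = 0.679; means of 86.3 in C+, 259 in C-, 96.0 in R+ and 654 in R-). Of 34 progenitor and Notch genes 2 were lower (Dll3 and Dll1) and with the block 5, and of 11 mesenchyme genes 1 was lower (Dcn). In 19 glutamate neuron, 8 motor and cholinergic, 36 cell cycle, 16 immediate early, 7 red blood cell, 8 macrophage and 8 endothelial genes 0 passed in limma, and with the block 1 glutamate neuron gene was higher and 1 lower. At an unadjusted p below 0.05 these lists held 5, 2, 1, 1, 0, 1 and 1 genes, in that order, where 7.15% of all genes reached it. Because only 1.17% of all genes passed in limma, counts of 0 in lists of this size are near that share and are no result about these cell types. The red blood cell genes summed to 9004 to 15897 in R+ and 4918 to 8977 in C+ against 45535 to 59642 in R- and 40881 to 45286 in C-. The macrophage genes summed to 1497 to 2906 in R+ and 1009 to 1084 in C+, and their part in the difference of differences was not tested.

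Some of the 150 genes lie next to each other on the chromosome. By the gene order of RefSeq GRCm38.p6, 9 pairs of adjacent protein-coding genes both passed, among 8392 adjacent measured pairs, and 8 of the 9 moved in the same direction. Over all genes 1.17% passed, and whether 9 pairs exceed what that share gives was not tested. The share of same-direction pairs among all adjacent measured pairs was not computed. Hmx3, Hmx2 and Bub3 formed a run of 3 higher genes. Bub3 read 14109, 13340 and 12839 in R+ and 4824 to 6420 on all other arrays, so it was abundant in every group and raised in R+. Shox2, Rsrc1 and Mlf1 formed a run of 3 lower genes, in which the splicing-related gene Rsrc1 overlaps Shox2 (-1.48 ± 0.32, adjusted p = 0.0342; C+ at 1203 to 1811, all others at 423 to 967; lost without 9 single arrays). The other same-direction pairs were Cntn1 with Pdzrn4, Dsel with Cntnap5a, Rit2 with Syt4, and Pon2 with Asb4. The sorting receptor genes Sorcs3 (-1.21) and Sorcs1 (2.02) were adjacent and opposite, and their calls were lost without 2 and 4 single arrays.

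**Figure D5:**
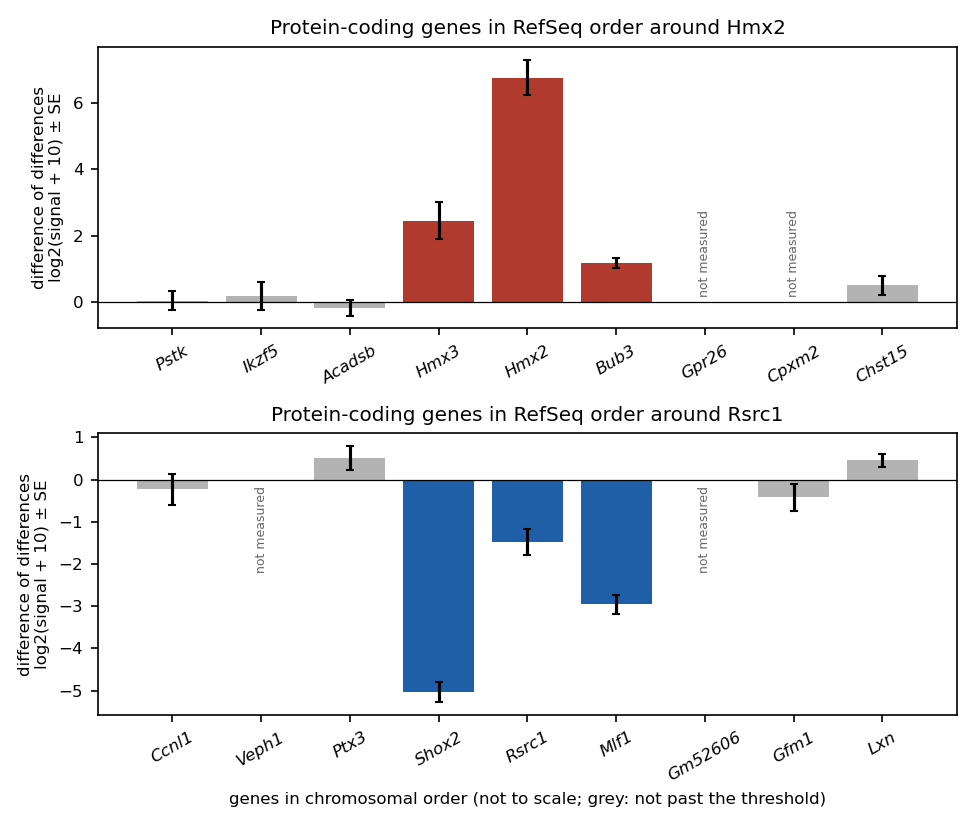
Difference of differences ± SE for the measured protein-coding genes around Hmx2 (upper panel) and around Rsrc1 (lower panel), in chromosomal order and not to scale; coloured bars passed the threshold and grey bars did not. Hmx3, Hmx2 and Bub3 form a run of higher values and Shox2, Rsrc1 and Mlf1 a run of lower values, and the measured genes on either side did not pass.

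Other probe sets of the same genes were read as a check that did not choose the calls. For 69 of the 150 genes there were 117 other kept probe sets. When all probe sets were fitted, 13 passed with the same sign and 97 had the same sign without passing, 7 had the opposite sign (2 of Npnt and 1 each of Hoxc5, Nell2, Pon2, Tpd52 and Wnt5a), and 0 passed with the opposite sign. In that fit 123 of all 22030 probe sets passed. Probe sets of 1 gene read the same RNA on the same arrays, and how often their signs agree over all genes was not computed. When the probe sets of each gene were averaged, 38 of the 150 lost their calls.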

How the data were processed

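RNA from 12 sorted samples was hybridized to Affymetrix Mouse 430 2.0 arrays after 1 round of amplification, per the labels' protocols. The authors deposited linear MAS5 intensity values, per the submitters' processing notes, as whole numbers; version and settings: not given in the sources used here. On every array the mean without the lowest and highest 2% was 500. No detection calls were used, and the number of arrays limits the precision.

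A probe set was kept where at least 3 arrays exceeded 107, the median of all values; 22030 of those kept had 1 gene symbol in GEO's platform annotation. The probe set of highest mean log2 signal stood for its gene, which gave 12845 genes. The contrast was fitted to log2(signal + 10) in limma 3.58.1 (R 4.3.3), with 1 mean per group over all 12 arrays, eBayes with a trend, two-sided tests, and Benjamini-Hochberg adjustment over all genes at 0.05. The offset shrinks the differences of dim genes. In simulated data for this contrast over 12845 genes the fit found 28% of the genes changed by 1 log2 unit. It found 68.4% of those changed by 2 and 92.4% of those changed by 4, and made 34 calls among 63225 unchanged genes. The simulated noise was independent between arrays and only R+ was shifted. Arrays of the same replicate number were correlated in the real data, so these shares need not hold for them.

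Named genes were, per direction, the 15 of largest size among those that passed with the same sign in all 3 replicate numbers and a highest group mean of at least 428, the 5 of smallest adjusted p, the markers Shox2, Tac1, Hmx2 and Nrp2, and members of 33 gene lists (802 entries, 619 measured; some genes stand in several lists). Other genes of the 150 were named after their values were seen, and 1 result is not reported here. The members and lists were chosen with earlier results of these data known, so no list is independent evidence. The labels call the replicates biological but name no litters; p-values cover only the spread between these samples.

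Whether replicate numbers pair the samples was checked on deviations from the group means. Arrays of different groups with the same number correlated at 0.118 to 0.52 in all 18 pairs, and other pairs at -0.398 to 0.272. Of the other pairs 5 exceeded 0.1, all of them between numbers 2 and 3. For example, C+ 3 correlated more with C- 2 (0.272) than with C- 3 (0.167). The correlations set replicate 1 apart but did not clearly separate 2 from 3, so they do not settle pairing by number. The fit with replicate number as a block is therefore an alternative, given where it moves a result. Promoter windows and gene order are from RefSeq GRCm38.p6.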

Additional observations from a re-analysis of the deposited data

Results flagged for a closer look

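By the test of the difference itself, 150 genes differed between R+ minus C+ and R- minus C-. In 14 of them both domain differences passed a test of their own and ran in opposite directions. In 4 of these the YFP-positive cells were higher rostrally and the YFP-negative cells higher caudally: Hmx2 (6.76), Nptx1 (2.19), Glra2 (2.14) and Tafa2 (1.88). In the other 10 the order was the reverse: Irs4 (-5.33), Diras2 (-3.16), Gabrb2 (-1.83), Vat1l (-1.82), Pcdh8 (-1.82), Epb41l4a (-1.54), Vxn (-1.43), Tox2 (-1.37), Zcchc12 (-1.37) and Ntn1 (-1.25). All values are differences of differences on the log2(signal + 10) scale. The calls of Diras2, Gabrb2 and Nptx1 were lost when the probe sets of a gene were averaged, and those of Hmx2, Irs4, Glra2 and Tox2 held under all 28 alternatives. All 3 R- arrays of Hmx2 and all 3 C- arrays of Irs4 lay below the median of all values, so that the sizes of their YFP-negative components are uncertain.

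Signal was also present outside the gene-level measurement. Of 4031 kept probe sets without a single gene symbol, 14 (0.347%) passed when all 26061 kept probe sets were fitted together, 4 higher and 10 lower, against 0.554% of the probe sets with a single symbol. They are unnamed here.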

How the results depend on the processing

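The number of arrays, 3 per group, limits what could be called. Of the 150 genes, 19 kept their call under all 28 alternatives (among them Hmx2, Pdzrn4, Nrp2, Vstm2a, Cdh13, Gfra1, Shox2, Tac1, Irs4, Cntnap5a, Mlf1, Ndnf, Gad1 and Meis2), 88 kept it without any single array, and 62 lost it without at least 1. Over all gene and alternative pairs, 3271 kept the call, 922 kept the direction only and 0 reversed; the cause was not tested. With the replicate block 340 genes passed (141 higher, 199 lower), all 150 among them, so the block ended no call. Leaving out replicate 1, 2 or 3 in all 4 groups gave 27 to 219 genes (12 to 98 higher, 15 to 121 lower): replicates 2 and 3 took the count to 34 and 27, and replicate 1 to 219. The block without replicate 1, chosen after seeing the data, gave 317 (165 higher, 152 lower). Leaving out single arrays gave 103 to 182 genes (37 to 84 higher, 64 to 98 lower), and the higher genes were fewest, 37 and 38, without R+ 2 and R+ 3. Scaling arrays to the same median gave 38 higher and 82 lower genes (31.7% higher against 42%), and 38 of the 150 lost their calls, among them Adcyap1r1, Aldoc, Cdh4, Chmp2b, Cntnap2, Draxin, Enc1, Gabrb1, Hmx3, Kif26b, Klf6, Klhdc10, Lamp5, Lmcd1, Lmo4, Meis1, Myh7, Nell2, Ngfr, Npas3, Nr2f2, Ntrk3, Plxna2, Ppp2r2b, Rbfox1, Slc37a4, Slitrk5, Syt4 and Wscd1. Averaging the probe sets of a gene also ended 38 calls, among them Adamts12, Adcyap1r1, Cdh4, Ddc, Diras2, Draxin, Gabrb2, Gata2, Grik3, Hoxc5, Klf6, Klhdc10, Lmcd1, Lrrtm1, Mef2c, Meis1, Nell2, Npas3, Npnt, Nptx1, Nr2f2, Nr4a2, Ntrk3, Plxna2, Pon2, Ptchd1, Rbfox1, Rsrc1, Slc6a17, Slitrk5, Sorcs1, Tpd52 and Wnt5a, and a fit without the trend ended 50, Shh and Gata2 among them. Under median scaling C- stood apart on the high side in 5 genes and R- on the low side in 1, and with an offset of 50 C- stood apart on the high side in 24. The offsets 1 and 50, both filters, quantile normalization, averaged or single probe sets, no trend, and the beta-actin covariate gave 110 to 181 genes, and the Gapdh covariate, chosen after seeing the data, gave 204 (99 higher, 105 lower).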

Other observations

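Imprinted genes, a list compiled after the values were seen and so given as a description only, had a higher mean in C+ than in R+ in 22 of the 34 measured of 44 listed (64.7%, against 54.9% of all genes). Of the 34, 6 (17.6%) had a lower difference of differences (Dlk1, Asb4, Magel2, Zdbf2, Sgce and Mest), 0 a higher one (0.677% and 0.49% of all genes), and with the replicate block 9 were lower and 1 higher. The median over the 34 genes was -0.31, against -0.01 over all genes. Zdbf2 read 17970, 18063 and 19315 in C+, 7411, 8900 and 7693 in R+ and 1894 to 2712 on the YFP-negative arrays. Magel2, a ubiquitin ligase regulator of the Prader-Willi region, read 7218, 6702 and 7677 in C+, 2362, 2547 and 2054 in R+ and 1187 to 1488 on the YFP-negative arrays. Other imprinted genes did not pass, for example Ndn (-0.13 ± 0.20), Peg3 (-0.77 ± 0.18) and Cdkn1c (0.76 ± 0.36), but with the block Peg3 was lower (adjusted p = 0.00135) and Cdkn1c higher (adjusted p = 0.0245). Mest lost its call without R- 3.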
